A study of Mus musculus with 6 samples.

Results

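Collagen hydroxylases and folding chaperones are the enzymes and helpers that modify and fold procollagen in the endoplasmic reticulum (ER). They are represented here by 10 genes chosen by symbol, P4ha1, P4ha2, P4ha3, P4hb, Plod1, Plod2, Plod3, Serpinh1, Fkbp10 and Crtap, of 24346 gene symbols in the table. Expression was measured by RNA-seq of total RNA from primary articular chondrocytes, the cells that build joint cartilage, isolated on postnatal day 4 from mice of the ICR strain. There were 3 libraries from cells given semaphorin 4D (Sema4D), a ligand of plexin-B receptors, and 3 control libraries from cells without it, with no other genotype or agent named for either group. Not given in the sources used here are the dose, duration and source of Sema4D and what the control cells received. Replicates may be separate cultures, separate animals or technical repeats, since the labels do not say which, and p-values reflect the spread among these libraries alone.

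Procollagen chains carry repeats of glycine and proline, and many of their prolines and some lysines are hydroxylated before the chains wind into a helix. Prolyl 4-hydroxylase, a tetramer of catalytic alpha subunits (P4ha1, P4ha2 or P4ha3) and the beta subunit protein disulfide isomerase (P4hb), makes the hydroxyproline that keeps the helix stable at body temperature. Lysyl hydroxylases (Plod1 to Plod3) prepare lysines for sugar attachment and for the cross-links that join fibrils. Serpinh1 encodes HSP47, a chaperone that binds folded procollagen and escorts it towards the Golgi. Fkbp10 encodes FKBP65, a prolyl isomerase, and Crtap encodes cartilage-associated protein, the non-catalytic partner of prolyl 3-hydroxylase. The hydroxylases need oxygen, iron, 2-oxoglutarate and ascorbate. P4ha1, P4ha2 and Plod2 are known targets of the hypoxia-inducible factors (HIF). Chondrocytes secrete large amounts of collagen and depend on this machinery.

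The columns hold FPKM, fragment numbers scaled by transcript length and library depth, so that levels can be compared between genes. Column sums lay between 518901 and 527492 in the Sema4D libraries and between 492708 and 494123 in the control libraries. The steps of low values put depth at about 1.51e+07 to 1.81e+07 fragments in Sema4D and 1.34e+07 to 1.72e+07 in control libraries. The chondrocyte markers Col2a1, Acan and Sox9 were present in every library. Of 10 chondrocyte markers, 9 were called lower with Sema4D at a limma adjusted p under 0.05. Beside this count and those of the lists below, 22.2% of the 11603 tested genes were called lower and 24.5% higher, 46.7% in all. The summed level of the 10 chondrocyte markers was 10974 to 11914 FPKM in Sema4D and 13596 to 14733 FPKM in control libraries. Markers of endothelium summed to at most 0.307 FPKM in Sema4D and 0.226 FPKM in control libraries, and those of neutrophils and erythroid cells to at most 0.704 FPKM in Sema4D and 0.0664 FPKM in control libraries. The osteoblast list summed to 3.40 to 3.54 FPKM in Sema4D and 4.36 to 5.10 FPKM in control libraries, with 5 of its 6 genes under the filter. Of 7 tested fibroblast markers, 2 were higher and 3 lower, and that list, which Col1a1, Col1a2 and Col3a1 dominate, summed to 7724 to 8069 FPKM in Sema4D and 8362 to 8957 FPKM in control libraries. The macrophage and osteoclast list summed to 91.3 to 95.8 FPKM in Sema4D and 80.9 to 89.0 FPKM in control libraries. Most of it was Ctsk at 67.5 ± 1.27 FPKM with Sema4D and 53.0 ± 0.774 FPKM in control, while the defining marker Ptprc stood at 0.0896 FPKM with Sema4D and 0.0819 FPKM in control. Of the 5 tested genes of that list, 1 was higher (Ctsk), 2 were lower and 2 did not pass. The lower ones were Lyz2 (15.9 FPKM with Sema4D, 22.4 FPKM in control) and Tyrobp (0.636 FPKM with Sema4D, 1.68 FPKM in control). Muscle markers summed to 3.77 to 4.90 FPKM in Sema4D and 5.03 to 5.90 FPKM in control libraries. Neural and glial markers summed to 3.84 to 5.02 FPKM in Sema4D and 9.54 to 10.8 FPKM in control libraries. The part of any shift in cell makeup in the results was not tested, and in bulk samples fewer cells of a type and less RNA per cell cannot be told apart.

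The comparison asked how the transcripts of procollagen modification and folding differ in chondrocytes given Sema4D. P4ha2 was the gene with the greatest change of the 10, at 1.51 times its control level, and in Sema4D libraries its FPKM stood above that of P4ha1. P4ha3, Serpinh1, Fkbp10 and Crtap fell, by 28.8%, 22.1%, 16.6% and 8.12%. P4hb, Plod1 and Plod2 were higher by 7.94%, 8.23% and 12.5% on FPKM as deposited, but these 3 calls did not hold when columns were rescaled to equal sums or quantile normalized, and P4hb turned slightly negative after quantile normalization. P4ha1 and Plod3 did not pass the threshold. In all, 8 of 10 genes passed at a limma adjusted p under 0.05, 4 higher and 4 lower, against 46.7% of the 11603 tested genes called in either direction, 24.5% called higher and 22.2% called lower. Among the 6176 tested genes that averaged 10 FPKM or more, as all 10 did, 52% were called, 28.8% higher and 23.2% lower. The groups did not overlap for 8 of the 10, against 56.6% of tested genes. The median absolute log2 fold change of the 10 was 0.145, against 0.147 over all tested genes, and their median signed change was 0.014 against 0.0062.

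The alpha subunits of prolyl 4-hydroxylase differed from each other. Upstream sequence is shown for these 3 genes because the paralogs encode alternative versions of the same subunit and did not change alike. The windows are the 250 bases before a transcript start of each gene in RefSeq (GRCm38.p6, the assembly of mm10), all on the plus strand. For P4ha1 and P4ha3 that start is of a transcript that begins inside the gene's annotated span, so the windows reach into it. They lie at chr10:59323046-59323295 for P4ha1, chr11:54100674-54100923 for P4ha2 and chr7:100285270-100285519 for P4ha3. Capitals mark each match to ACGTG or GCGTG, the core of the element bound by HIF, or to their reverse complements CACGT and CACGC.
P4ha1: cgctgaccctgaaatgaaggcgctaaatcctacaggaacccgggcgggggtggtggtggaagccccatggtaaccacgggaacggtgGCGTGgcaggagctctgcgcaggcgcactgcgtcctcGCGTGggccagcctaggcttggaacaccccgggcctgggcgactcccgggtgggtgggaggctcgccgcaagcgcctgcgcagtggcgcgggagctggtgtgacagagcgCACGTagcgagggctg
P4ha2: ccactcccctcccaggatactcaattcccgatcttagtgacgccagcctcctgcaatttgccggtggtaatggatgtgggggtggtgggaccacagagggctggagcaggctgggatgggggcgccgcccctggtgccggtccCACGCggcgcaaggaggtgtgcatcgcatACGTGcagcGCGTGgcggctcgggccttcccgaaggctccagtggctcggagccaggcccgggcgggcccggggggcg
P4ha3: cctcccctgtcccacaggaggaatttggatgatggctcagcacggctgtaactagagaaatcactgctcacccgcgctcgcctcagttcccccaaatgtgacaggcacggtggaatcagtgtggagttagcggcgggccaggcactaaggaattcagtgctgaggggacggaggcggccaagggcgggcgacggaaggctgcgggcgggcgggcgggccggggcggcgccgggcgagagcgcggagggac
The core occurred 3 times in the P4ha1 window, 3 times in the P4ha2 window and not in the P4ha3 window, and 38.8% of 32536 distinct RefSeq windows of the same length hold it on either strand. That share was not matched for base content. G and C made up 69.6%, 70% and 67.2% of the P4ha1, P4ha2 and P4ha3 windows, against a median of 52.4% over all windows. Windows were at hand for 8 of the 10 genes, and the core occurred 4 times in that of Plod3, 3 times in that of Crtap, 2 times in that of P4hb and once in those of Plod1 and Serpinh1. A kappaB word (GGG, 2 further bases, then TTTCC) and the ER stress element (CCAAT, 9 further bases, then CCACG) were found in none of the 8 windows on either strand, and 1.40% and 0.114% of all windows hold them. With no match of either, the core overlapped no other motif searched. The core was thus present in windows of genes that rose, fell or did not pass, and a match is a description of letters, not a site.

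P4ha2, whose product, the alpha(II) subunit, forms the main prolyl 4-hydroxylase known in chondrocytes, lies on chromosome 11 at 54100924 to 54131668 (plus strand, 16 exons in its principal transcript). It was at 214, 220.4 and 216 FPKM in Sema4D replicates 1, 2 and 3, against 141, 144 and 145 FPKM in control replicates 1, 2 and 3. Every Sema4D library was above every control library by a margin far wider than the spread within either group. The means were 217 ± 3.37 FPKM with Sema4D and 144 ± 1.91 FPKM in control (SD, n = 3 each), a log2 fold change of 0.59 (SE 0.026, 95% interval 0.53 to 0.65, limma adjusted p = 4.28e-07). On the absolute scale this change was larger than that of 89.4% of tested genes.

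P4ha1, which encodes the alpha(I) subunit used by most cell types (chromosome 10, 59323197 to 59373304, plus strand, 15 exons), was at 156, 157 and 159.6 FPKM in the Sema4D libraries, against 159.7, 156 and 159 FPKM in the control libraries. The groups overlapped almost completely. The log2 fold change was -0.0065 (SE 0.025, 95% interval -0.065 to 0.052, limma adjusted p = 0.854), and its sign flipped without control replicate 1 or Sema4D replicate 1. After rescaling to equal column sums it was -0.089 (adjusted p = 0.0262) and after quantile normalization -0.13 (adjusted p = 0.00297), so whether P4ha1 is called lower depended on the scaling.

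P4ha3, the least studied alpha subunit (chromosome 7, 100285489 to 100319701, plus strand, 13 exons), had the lowest level of the 10 genes. It was at 14.3, 14.4 and 13.8 FPKM in the Sema4D libraries, against 19.3, 19.6 and 20.8 FPKM in the control libraries. All Sema4D libraries were below all control libraries, and the log2 fold change was -0.46 (SE 0.041, limma adjusted p = 3.48e-05). With an estimated 491 to 818 fragments per library, its counting error was at most 4.51%, the largest of the 10 genes.

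P4hb (chromosome 11, 120560298 to 120573253, minus strand, 11 exons) encodes protein disulfide isomerase, which also forms disulfide bonds in proteins other than collagen. It was at 726, 743 and 747 FPKM in the Sema4D libraries, against 687, 681 and 685 FPKM in the control libraries. The groups did not overlap, and the log2 fold change was 0.11 (SE 0.023, limma adjusted p = 0.0051), but 0.028 after rescaling to equal column sums (adjusted p = 0.404) and -0.058 after quantile normalization (adjusted p = 0.146). Column sums themselves were higher in the Sema4D libraries, which that rescaling removes.

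**Figure D1:**
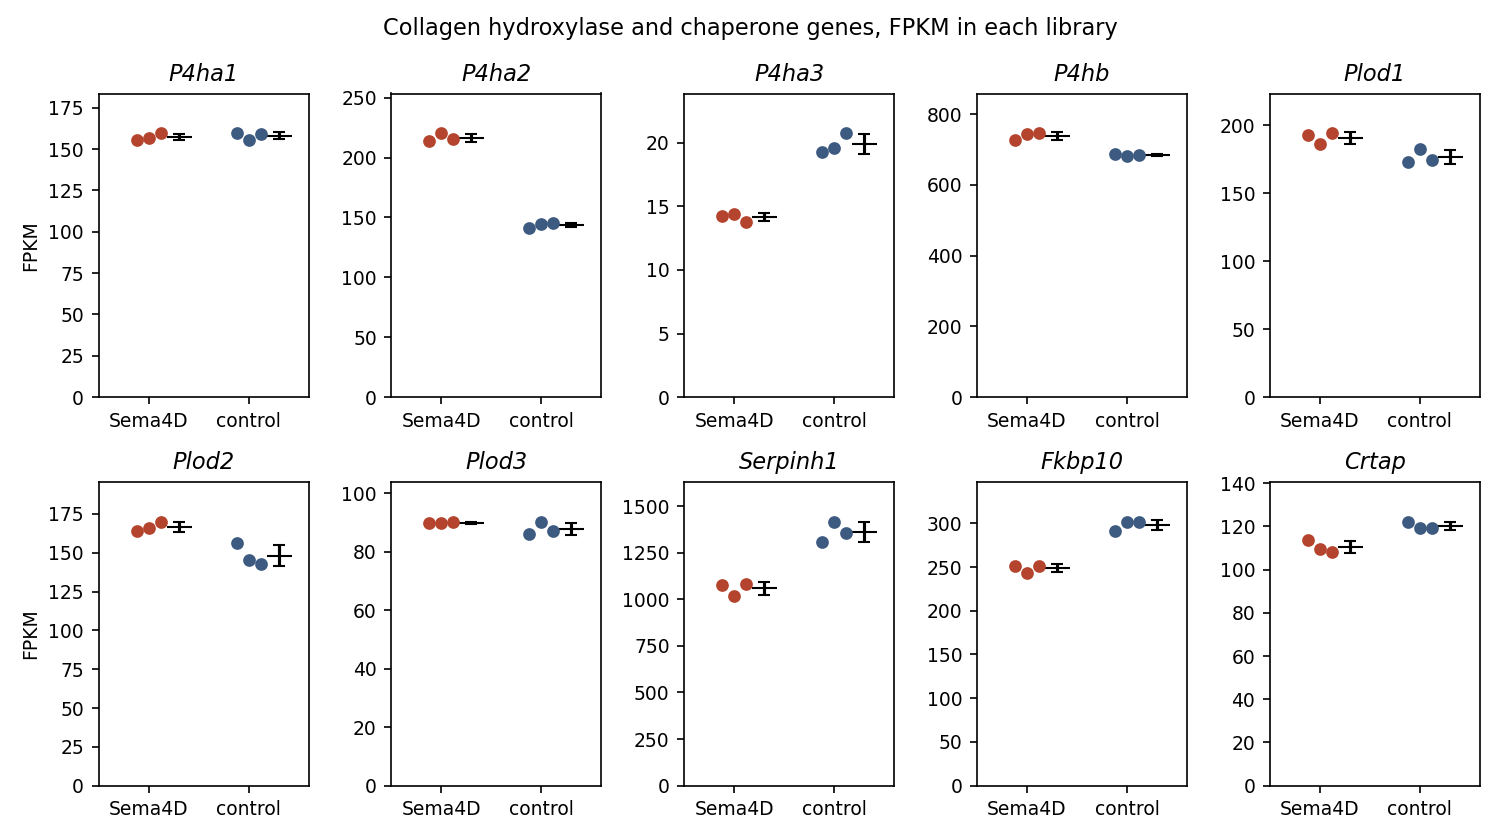
FPKM of the 10 genes in each library (points, Sema4D left and control right, replicates 1 to 3 from left to right, vertical axes from 0), with the mean and SD of each group beside the points (n = 3 each). P4ha2 stands at 214 to 220.4 FPKM with Sema4D against 141 to 145 FPKM in control, while P4ha3, Serpinh1, Fkbp10 and Crtap are lower in every Sema4D library and P4ha1 and Plod3 overlap.

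The makeup of the alpha subunit transcripts shifted accordingly, on a measure that a single scaling factor per library leaves unchanged. P4ha2 made up 55.7%, 56.3% and 55.4% of the summed FPKM of P4ha1, P4ha2 and P4ha3 in the Sema4D libraries, against 44.1%, 45.1% and 44.7% in the control libraries. P4ha1 made up 40.6%, 40.1% and 41.0% with Sema4D, against 49.9%, 48.7% and 48.9% in control, and P4ha3 made up 3.54% to 3.72% with Sema4D, against 6.01% to 6.39% in control. After quantile normalization, which moves genes unequally, P4ha2 made up 55.8% to 56.4% with Sema4D, against 43.9% to 44.9% in control. By FPKM, P4ha2 was thus the most abundant alpha subunit transcript in all Sema4D libraries and P4ha1 in all control libraries. Which gene stands higher rests on the transcript lengths used, which the sources used here do not give. The summed level of the 3 was 388 ± 3.96 FPKM with Sema4D and 322 ± 2.74 FPKM in control (SD, n = 3 each). P4hb exceeded that sum 1.89, 1.90 and 1.92 times in the Sema4D libraries, against 2.15, 2.13 and 2.11 times in the control libraries.

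Differences between genes in their change were tested on the log2 ratio of 2 genes within each library, for 9 pairs, with a two-sided exact permutation test that cannot give a p under 0.1 with 3 libraries against 3. The log2 ratio of P4ha1 to P4ha2 was -0.46 ± 0.028 with Sema4D and 0.14 ± 0.033 in control (SD, n = 3 each), a difference of -0.60 (exact p = 0.1, 0.1125 adjusted over the 9 pairs). The ratio of P4ha2 to P4ha3 was 3.84 ± 0.030 and 2.79 ± 0.040 on the log2 scale in Sema4D and control libraries, a difference of 1.05, and that of P4ha1 to P4ha3 differed by 0.46. In 8 of the 9 pairs the groups did not overlap and the exact p was 0.1, the smallest possible, with 0.1125 adjusted, so no pair could pass the threshold. The exception was Plod2 over Plod1. After quantile normalization all 9 differences kept their sign, and the groups did not overlap in 6 pairs, those without a Plod gene.

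**Figure D2:**
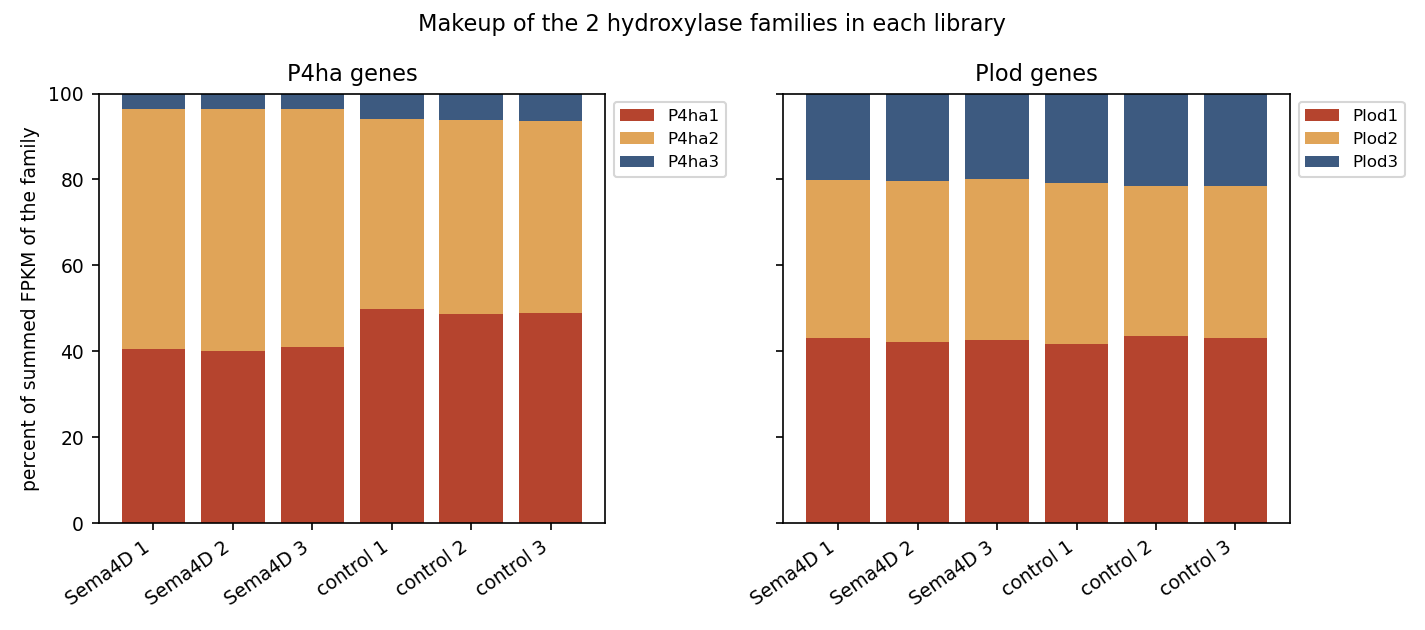
Percent of the summed FPKM of each family that each gene took in each library (stacked bars, the 3 Sema4D libraries left of the 3 control libraries). P4ha2 takes 55.4% to 56.3% of the alpha subunit transcripts with Sema4D against 44.1% to 45.1% in control, while the shares of Plod1 and Plod2 overlap between groups.

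Lysyl hydroxylase transcripts moved little. Plod1, whose enzyme acts on helical lysines (chromosome 4, 147909753 to 147936776, minus strand, 19 exons), was at 192, 186 and 194 FPKM in the Sema4D libraries, against 173, 182 and 174 FPKM in the control libraries. Its log2 fold change was 0.11 (SE 0.031, limma adjusted p = 0.0177), and the call was lost without any one of 4 libraries, under the replicate block and under each of 3 other scalings. Plod2, whose enzyme hydroxylates the lysines of the chain ends and so sets the type of cross-link (chromosome 9, 92539636 to 92608428, plus strand, 19 exons), was at 164, 166 and 170.0 FPKM in the Sema4D libraries, against 156, 145 and 143 FPKM in the control libraries. All its Sema4D values were above the control values, with control replicate 1 nearest to them, and the log2 fold change was 0.17 (SE 0.037, limma adjusted p = 0.00619). It was 0.087 after rescaling to equal column sums (adjusted p = 0.0914) and 0.049 after quantile normalization (adjusted p = 0.337).

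Plod3, whose enzyme also transfers sugars to hydroxylysine (chromosome 5, 136987019 to 136996646, plus strand, 19 exons), was at 89.8, 89.9 and 90.4 FPKM in the Sema4D libraries, against 86.2, 90.3 and 87.0 FPKM in the control libraries. The groups overlapped, and the log2 fold change was 0.035 (SE 0.028, 95% interval -0.029 to 0.10, limma adjusted p = 0.336), with a sign that flipped under each of the 3 other scalings. It overlaps Znhit1 on the opposite strand, itself called higher (28.9 ± 0.967 FPKM with Sema4D, 23.6 ± 0.378 FPKM in control, log2 fold change 0.28, adjusted p = 0.000327). No source used here gives the strand setting, so reads of the shared stretch cannot be told apart. The summed FPKM of the 3 Plod genes was 447 ± 6.47 with Sema4D and 412 ± 7.10 in control (SD, n = 3 each). Plod2 took 36.7%, 37.6% and 37.4% of it in the Sema4D libraries, against 37.6%, 34.8% and 35.4% in the control libraries, which overlap. The mean difference of 1.30 percentage points was 2.15 without control replicate 1 and 0.729 without control replicate 2. The log2 ratio of Plod2 to Plod1 was -0.19 ± 0.036 with Sema4D and -0.25 ± 0.095 in control, a difference of 0.055 (exact permutation p = 0.4, n = 3 each) that ran from 0.019 without control replicate 2 to 0.11 without control replicate 1.

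All 3 chaperone and cofactor genes fell. Serpinh1 (chromosome 7, 99345375 to 99353239, minus strand, 5 exons), the most abundant of the 10 genes, was at 1075, 1019.5 and 1083 FPKM in the Sema4D libraries, against 1308, 1417 and 1355 FPKM in the control libraries. Every Sema4D library was below every control library, with means of 1059 ± 34.6 FPKM and 1360.2 ± 54.5 FPKM in Sema4D and control (SD, n = 3 each). The log2 fold change was -0.36 (SE 0.037, 95% interval -0.45 to -0.27, limma adjusted p = 8.39e-05).

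Fkbp10 (chromosome 11, 100415694 to 100424840, plus strand, 10 exons) was at 251, 243 and 251 FPKM in the Sema4D libraries, against 291, 301 and 302 FPKM in the control libraries. Its groups were likewise apart, with a log2 fold change of -0.26 (SE 0.027, limma adjusted p = 9.46e-05). It overlaps Nt5c3b on the opposite strand, which was at 41.8 ± 1.38 FPKM with Sema4D and 44.3 ± 2.38 FPKM in control. On its other side, 978 bases away and on the opposite strand, lies P3h4, which encodes a scaffold protein of a lysyl hydroxylase complex and also fell (68.0 ± 1.72 FPKM with Sema4D, 78.3 ± 0.933 FPKM in control, log2 fold change -0.20, adjusted p = 0.000756).

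Crtap (chromosome 9, 114375131 to 114390712, minus strand, 7 exons) was at 114, 109.8 and 108 FPKM in the Sema4D libraries, against 122, 119 and 119 FPKM in the control libraries. The groups did not overlap, and the log2 fold change was the smallest of the falls, -0.12 (SE 0.029, limma adjusted p = 0.00955). P4ha3, Serpinh1, Fkbp10 and Crtap kept their direction and their call under every alternative tried. The log2 ratio of Serpinh1 to Fkbp10 was 2.09 ± 0.020 with Sema4D and 2.19 ± 0.039 in control, and that of Serpinh1 to the main cartilage collagen gene Col2a1 was -3.05 ± 0.028 with Sema4D and -2.95 ± 0.013 in control (exact permutation p = 0.1 for both, n = 3 each). The difference in the ratio to Col2a1 was -0.10 as deposited and -0.38 after quantile normalization.

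**Figure D3:**
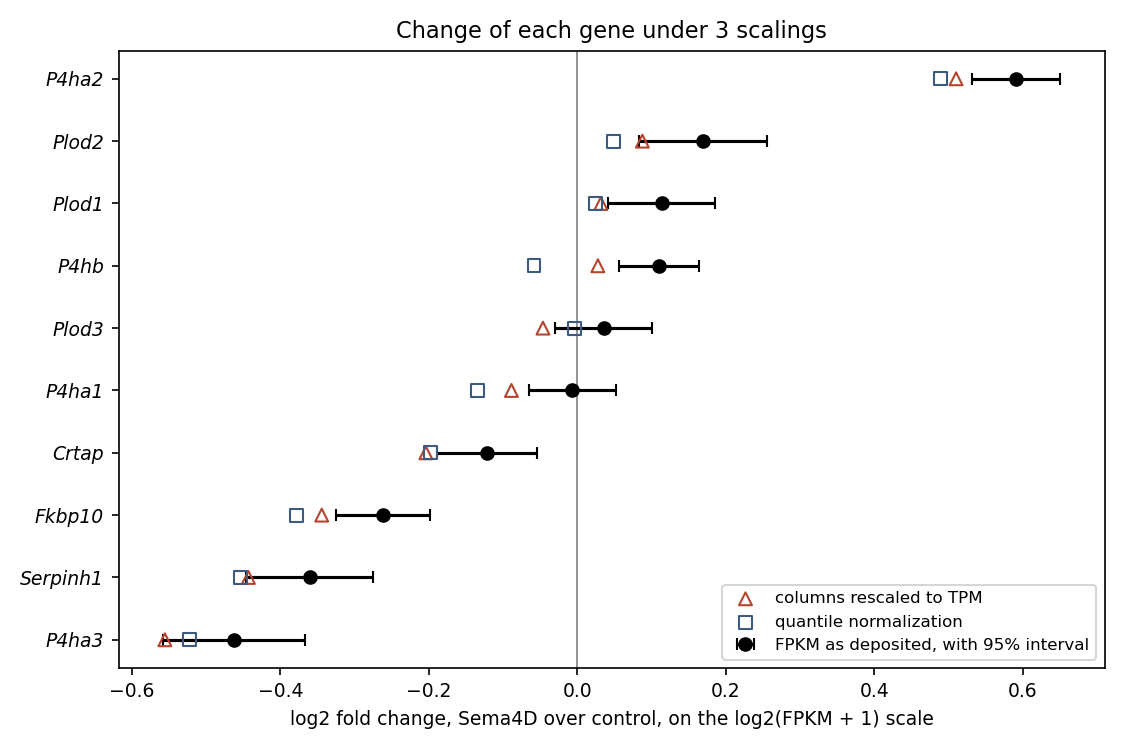
Log2 fold change of Sema4D over control for each gene on the log2(FPKM + 1) scale, with FPKM as deposited (filled points, bars the 95% interval from limma), columns rescaled to TPM (triangles) and quantile normalization (squares). P4ha2 lies at 0.59, 0.51 and 0.49 and the 4 falls at -0.12 or below under all 3 scalings, while P4hb lies at 0.11, 0.028 and -0.058.

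In FPKM, the 10 genes ranked from Serpinh1 through P4hb and Fkbp10 down to Crtap, Plod3 and P4ha3 in both groups. This ranking rests on transcript lengths that the sources used here do not give. The middle of the order differed between groups. With Sema4D it ran P4ha2, Plod1, Plod2 and P4ha1, and neighbours in the whole Sema4D order did not overlap in their FPKM. In control it ran Plod1, P4ha1, Plod2 and P4ha2, and there the ranges of P4ha1 and Plod2 and of Plod2 and P4ha2 overlapped. P4ha2 was 4 in rank with Sema4D and 7 in control. Of the tested genes, 63.4% lay below or at the mean level of P4ha3, and the other 9 genes were above at least 93.2% of them.

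Genes with the profile nearest to P4ha2, by distance between centred log2(FPKM + 1) values over the 6 libraries and among 10546 other named protein-coding genes, included Lpgat1 (distance 0.043), Ptbp3 (0.049), Sav1 (0.057) and Glis3 (0.058), with log2 fold changes of 0.56 to 0.62. Nearest to P4ha3 were Anxa6 (0.048), Tinagl1 (0.059), the tendon gene Tnmd (0.065), Baiap2l1 (0.068) and Sipa1l1 (0.071), with log2 fold changes of -0.50 to -0.42. No other gene of the collagen lists was among them.

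Among the substrates of these enzymes, more collagen chains were called lower than higher. Of 10 tested fibrillar collagen chains, 6 fell and 2 rose (median log2 fold change -0.21, against 0.0062 over all tested genes). The 2 that did not pass were Col1a1 (-0.070, limma adjusted p = 0.138) and Col3a1 (0.095, limma adjusted p = 0.0517). Col2a1, the chain with the highest level, fell by 0.26 on the log2 scale. Of all tested genes, 22.2% were called lower and 24.5% higher. Col11a1 fell to 1020.0 ± 33.7 FPKM with Sema4D, against 1359 ± 37.4 FPKM in control, and Col27a1 to 43.5 ± 2.66 FPKM, against 75.7 ± 2.68 FPKM. Col5a3, a minor chain of collagen V, rose to 57.8 ± 3.85 FPKM with Sema4D, against 11.5 ± 1.28 FPKM in control, and Col5a2 was the other rise (log2 fold change 0.26). Of 17 other collagen chains, 8 fell and 4 rose (median -0.20). Among the falls were Col12a1 (log2 fold change -0.31) and Col14a1 (-0.72), chains that decorate fibrils, and the rises were Col4a1, Col4a2, Col8a2 and Col18a1.

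Relative to the collagen transcripts they serve, alpha subunit and Plod transcripts were more abundant with Sema4D and Serpinh1 less. Fibrillar chains summed to 20424, 19146 and 19758 FPKM in the Sema4D libraries, against 21659, 23457 and 22763 FPKM in the control libraries. Quantile normalization made these sums overlap, at 19560 to 20756 FPKM with Sema4D and 20175 to 23098 FPKM in control. Per 100 FPKM of fibrillar chains, the 3 alpha subunits summed to 1.88, 2.05 and 1.97 FPKM with Sema4D, against 1.48, 1.36 and 1.43 FPKM in control. The Plod genes summed to 2.18, 2.31 and 2.30 FPKM on that scale with Sema4D, against 1.92, 1.78 and 1.78 FPKM in control. Serpinh1 stood at 5.27, 5.32 and 5.48 FPKM per 100 with Sema4D, against 6.04, 6.04 and 5.95 FPKM in control. For each of these 3 quantities the groups did not overlap, and they are given as descriptions with no test. After quantile normalization the groups overlapped for the Plod genes, at 2.11 to 2.22 FPKM per 100 with Sema4D and 1.80 to 2.13 FPKM in control, and remained apart for the other two quantities.

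Of 13 other genes of procollagen modification and folding, 9 fell and 2 rose (median log2 fold change -0.18). The shares over all tested genes were 22.2% called lower and 24.5% called higher. Fkbp14, an ER prolyl isomerase gene, fell to 28.8 ± 0.974 FPKM with Sema4D, against 42.4 ± 0.475 FPKM in control, and P3h2, a prolyl 3-hydroxylase gene, to 15.4 ± 0.347 FPKM, against 21.7 ± 0.985 FPKM. The rises were Tmem38b, whose product is an ER cation channel needed for collagen synthesis in bone (8.47 ± 0.339 FPKM with Sema4D, 3.75 ± 0.284 FPKM in control, log2 fold change 0.998), and Fkbp11 (0.62). P3h1 (-0.18) and Ppib (-0.17), whose products form a complex with that of Crtap, were also among the falls, and are named after their values were seen. Colgalt1 and P3h3 did not pass the threshold (0.060 and 0.024).

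Of 10 tested genes of procollagen export from the ER, 6 fell and 0 rose by limma at an adjusted p under 0.05 (median -0.16), and 2 were higher at an unadjusted p under 0.05. They included Sec23a, a coat protein gene (log2 fold change -0.29), and Creb3l1 and Creb3l2 (-0.28 and -0.51), transcription factors that act on secretory genes in bone and cartilage. Without Sema4D replicate 3, 2 genes of this list rose. Of 7 tested genes of procollagen processing, 4 fell and 2 rose (median -0.11). Beside the export and processing counts, 22.2% of all tested genes were called lower and 24.5% higher. Pcolce2, an enhancer of propeptide removal, fell to 47.7 ± 1.11 FPKM with Sema4D, against 80.2 ± 0.951 FPKM in control, and Pcolce by 0.17 on the log2 scale. Bmp1 and Tll1 were the other falls, at -0.11 and -0.24, and the propeptidase genes Adamts2 (0.18) and Adamts14 (0.27) rose.

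General ER folding genes changed in both directions on FPKM as deposited. Of 18 such genes, 3 rose, 6 fell and 9 did not pass (median log2 fold change -0.011). Of all tested genes, 46.7% were called, 24.5% higher and 22.2% lower, and the number called in this list was close to that overall share. Ero1l, the oxidase gene whose product reoxidises protein disulfide isomerase, rose to 182 ± 5.07 FPKM with Sema4D, against 93.8 ± 3.22 FPKM in control (0.95, limma adjusted p = 1.53e-07), and the other rises were Canx (0.098) and Hyou1 (0.13). Herpud1, of ER-associated degradation, fell by 0.54 and the isomerase gene Pdia4 by 0.20 on the log2 scale. Falls outnumbered rises further under the other scalings, under which falls also outnumbered rises over all tested genes. After rescaling to equal column sums, 1 gene was higher and 8 lower, against 2005 higher and 3802 lower of all 11603 tested genes. Scaling without the highest genes gave 1 higher and 10 lower, against 2010 and 3842 of all tested genes. Quantile normalization gave 1 higher and 9 lower, against 2167 and 3415 of all tested genes. Whether this list differed from the collagen chaperones was not tested.

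**Figure D4:**
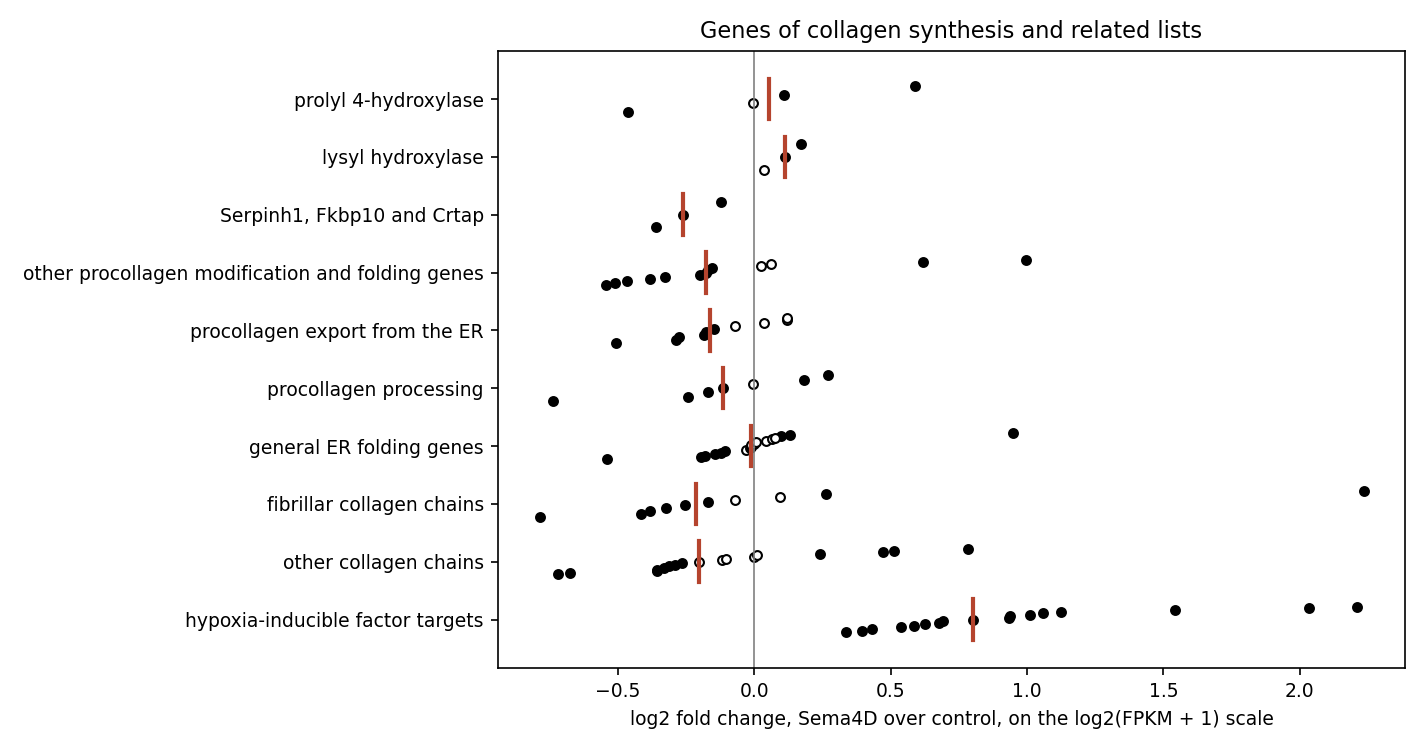
Log2 fold change of Sema4D over control for each tested gene of 10 lists (filled points pass limma's adjusted p under 0.05, open points do not, vertical bars are list medians). Serpinh1, Fkbp10 and Crtap and the lists of modification, export, processing and collagen genes have medians from -0.26 to -0.11, while the HIF targets all lie above 0.33.

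All 17 HIF target genes rose (median log2 fold change 0.80), against 24.5% of all tested genes called higher. The list's lowest log2 fold change, 0.33, lay between those of P4ha2 at 0.59 and Plod2 at 0.17. Adm, a vasodilator peptide gene, rose by 2.21, the glycolytic regulator gene Pfkfb3 by 1.54 and Ndrg1 by 1.01 on that scale. Of 5 tested genes of HIF subunits and their hydroxylases, 3 rose. They were Hif1a (149.5 ± 5.67 FPKM with Sema4D, 87.5 ± 1.64 FPKM in control), Epas1 (22.1 ± 0.751 FPKM with Sema4D, 6.72 ± 0.293 FPKM in control) and Egln2 (log2 fold change 0.18). Only 2 genes of this list were called higher with columns rescaled to equal sums or scaled without the highest genes. The HIF hydroxylase genes Egln1 and Egln3 were counted in the target list instead, with log2 fold changes of 1.12 and 2.03. Slc23a2, a transporter gene for the hydroxylase cofactor ascorbate, rose to 23.7 ± 0.996 FPKM with Sema4D, against 11.3 ± 0.289 FPKM in control (1.01, limma adjusted p = 3.59e-07). The other transporter gene, Slc23a1, was under the filter at 0.101 FPKM with Sema4D and 0.134 FPKM in control. P4ha1, the remaining known HIF target of the 10 genes, did not share these rises, at -0.0065 (limma adjusted p = 0.854) as deposited and called lower under each of the 3 other scalings, under which the call of Plod2 was lost. These lists are set beside P4ha1, P4ha2 and Plod2 as measurements, and whether their changes share a cause was not tested.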

How the data were processed

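RNA-seq values of 6 libraries from primary mouse chondrocytes were analysed, 3 with and 3 without Sema4D, grouped by the labels. The deposited values are FPKM. Per the submitters' processing notes, the authors used Cufflinks 2.2.1, TopHat2 2.0.13, SAMtools 0.1.19 and Bowtie2 2.2.3 with the mm10 build. Not given in the sources used here are annotation, strand setting, filters and scaling between libraries. FPKM are not counts, and low values did not fall on whole fragments cleanly enough (78% to 82% within 0.15 of a whole number) to recover counts. Depth was estimated from those steps in 1681 genes with 1 transcript over 2000 nucleotides, and covers counting error only.

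The 11603 genes that averaged 1 FPKM or more were tested on log2(FPKM + 1) with limma 3.58.1 in R 4.3.3 (trended eBayes, two-sided, Benjamini-Hochberg over all tested genes, threshold 0.05). Folds on this scale are understated for low genes. The code was tested on simulated data. The 10 genes and 17 further lists, 9 of them on collagen synthesis and HIF, were chosen with earlier results of these data known. Named from each list were the 3 genes with the smallest p, genes of counts of 5 or fewer and the 5 profiles nearest to the highest and lowest of the 10, of which 1 is not reported here. Exons and transcript lengths are those of GENCODE M21, and positions and upstream sequences those of RefSeq GRCm38.p6. Alternatives were a pseudocount of 0.1, no filter or a mean of at least 5 FPKM, 3 other scalings, a replicate block and leaving out each library, and quantile normalization of ratios and shares was added after seeing the data. Other steps used Python 3.11.15 with scipy 1.17.1, numpy 2.4.6, pandas 2.3.3 and matplotlib 3.10.9.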

Additional observations from a re-analysis of the deposited data

How the results depend on the processing

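Rescaling mattered most, because the changes of several genes are small. Relative to FPKM as deposited, the median of all tested genes moved from 0.0062 to -0.071 with columns rescaled to a sum of 1000000 (TPM), to -0.069 with columns scaled without Saa3 and the 100 highest genes and to -0.049 with quantile normalization. The share of calls that were higher was 52.4% as deposited and 34.5%, 34.3% and 38.8% under these scalings, in that order. Under each of the 3, only 1 of the 10 genes, P4ha2, was called higher, in place of 4. In the same order of scalings, P4hb was at 0.028, 0.026 and -0.058, Plod1 at 0.032, 0.030 and 0.025, Plod2 at 0.087, 0.086 and 0.049, Plod3 at -0.046, -0.047 and -0.0040 and P4ha1 at -0.089, -0.090 and -0.13, of which P4ha1 passed the threshold under all 3 and the others under none. A single factor per library leaves family shares unchanged, but quantile normalization does not, and it was added for ratios and shares after seeing the data. Under it the Plod3 share difference was -0.45 percentage points, against -1.18 as deposited, with overlapping groups, the Plod3 over Plod1 and Plod2 over Plod3 ratio differences were -0.029 and 0.053, against -0.078 and 0.13, and that of Serpinh1 over Col2a1 was -0.38, against -0.10.

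With libraries left out, P4ha1 ranged from -0.017 to 0.00096 and was positive without control replicate 1 (0.00056) or Sema4D replicate 1. Plod1 ranged from 0.098 to 0.14 and missed the threshold without control replicate 1 or 3 (adjusted p = 0.0505 and 0.0617) or Sema4D replicate 1 or 3 (0.0564 and 0.0568), with limma adjusted p from 0.0124 to 0.564 across all alternatives. Procollagen export genes called higher ranged from 0 to 2 and processing genes called lower from 2 to 3, against 4 with all libraries. Processing genes called higher were 1, not 2, with a mean of at least 5 FPKM, with TPM or without the highest genes. General ER genes called higher were 1, not 3, under each scaling, and 10, not 6, were called lower without the highest genes.

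Whether replicate numbers pair the libraries was not settled. The correlations of same-numbered deviations were 0.14, -0.081 and -0.054, and not every library correlated best with its own number. The other positive correlations were 0.14 for Sema4D replicate 3 with control replicate 2 and 0.10 for Sema4D replicate 2 with control replicate 3. Deviations from a mean of 3 libraries sum to 0 in each gene, so correlations this weak cannot show or exclude a pairing. With a replicate block 2638 genes were higher and 2356 lower, 2 processing genes in place of 4 were called lower, Plod1 (0.11) had a limma adjusted p of 0.0503, and no other of the 10 genes changed its call.

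P4ha2, P4ha3, Serpinh1, Fkbp10 and Crtap kept direction and call under all 13 alternatives, P4ha2 between 0.49 and 0.60 and Crtap between -0.20 and -0.11. Of 130 values for the 10 genes, 108 kept direction and side of the threshold. All 72 ratio values kept their sign. Of 42 share values 41 moved by less than 1 SD, but the Plod1 share difference, -0.12 percentage points, turned positive without control replicate 2 (0.30) or 3 (0.047) or Sema4D replicate 2 (0.17), and that of Plod2, 1.30, ran from 0.53 after quantile normalization to 2.15 without control replicate 1. P4ha3, with 491 to 818 estimated fragments per library, is the gene that depth limits most.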
